A study of Mus musculus with 12 samples.

Results

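The genes described here are 52 components of the Wnt pathway measured in mouse skin after hair plucking. They comprise 14 Wnt ligands, the acyltransferase Porcn, 12 receptors, 3 genes of β-catenin and its destruction complex, 4 TCF/LEF factors, 7 secreted inhibitors, 7 feedback targets and 4 R-spondins. They were chosen by name, with earlier results of these data known. An array probe was assigned to a gene through its RefSeq transcript, probes were kept if at least 3 of the 12 arrays read them as well above background, and the kept probe with the highest mean stood for the gene. By that rule 47 of the 52 genes were measured, among 16183 genes in all. Dkk1, Wnt2 and Wnt2b were not well above background on any array, and Wnt3a and Wnt7a on 2 arrays each, so these 5 have no value below. Of the 47 genes, 44 were above background in every mouse and 3 (Fzd9, Sfrp4 and Rspo2) were not in 1 or 2 mice.

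The study asked how Sox4, a transcription factor of the SoxC family, acts in hair regrowth and in awakening the stem cells of the follicle. It compared wild-type skin (WT) with skin in which Sox4 was conditionally deleted (cKO), 12 days after plucking, with 1 array of total RNA per mouse. All 12 mice were male and of mixed C57Bl6/129Sv background (75:25). They belonged to Exp 1 (WT mice 1, 2 and 3 and cKO mice 2, 5 and 6, aged 68 to 72 weeks) and Exp 2 (WT mice 4, 5 and 6 and cKO mice 1, 3 and 4, aged 16 to 20 weeks), so that age and experiment cannot be told apart. The driver of the deletion and the genotype of the controls beyond wild type could not be read from the labels.

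Wnt ligands are lipid-modified secreted proteins that bind Frizzled receptors with the co-receptors Lrp5 and Lrp6, which stops the destruction complex (Apc, Axin) from degrading β-catenin. β-Catenin then enters the nucleus and acts with TCF/LEF factors on target genes, several of which (Axin2, Nkd1, Notum, Rnf43, Znrf3) dampen the pathway in turn. In skin the pathway is known for starting the growth phase of the hair follicle and for hair shaft differentiation, and secreted inhibitors such as the Dkk and Sfrp proteins and Wif1 limit it.

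Every level below is the log2 processed signal minus the 75th percentile of the same array, so that 0 is the brightness that 75% of the probes did not exceed. Levels of different genes come from different probes and are not compared with each other. Values are given in the order of mice 1, 2 and 3 (WT, Exp 1), 4, 5 and 6 (WT, Exp 2), 2, 5 and 6 (cKO, Exp 1) and 1, 3 and 4 (cKO, Exp 2). Differences carry their standard error (SE) and a p-value from limma with Benjamini-Hochberg adjustment across the 16183 genes. A gene is said to have passed the test when that p was under 0.05.

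Sox4 itself lay between 1.90 and 2.43 in the 6 WT mice and between -4.26 and -2.55 in the 6 cKO mice, 4 of which were above background (fitted difference -5.54). The defining markers of skin were present: all 8 epidermal keratinocyte genes and all 7 fibroblast genes listed were above background on every array. Skeletal muscle genes (12 listed, 12 measured, 5 above background on every array) moved with experiment. Their mean level lay between -4.27 and 0.58 in the 6 mice of Exp 1 and between -0.92 and 5.85 in Exp 2, where WT mouse 5 was lowest. Other lists moved with experiment without overlap: epidermal keratinocyte genes were higher in Exp 1 (6.54 to 7.68 against 5.93 to 6.49), and hair shaft and matrix genes (2.95 to 5.35 against 5.40 to 5.83) and macrophage genes (-0.002 to 0.86 against 0.93 to 1.42) were lower. The array of cKO mouse 5 stood apart. It had the lowest 75th percentile (364 intensity units) and the lowest share of probes well above background (53.9%) of the 12 arrays. The part of this in its values was not tested. Its mean level was 2.95 for hair shaft and matrix genes against 4.83 to 5.83 in the other mice, and 0.68 for melanocyte genes against 2.78 to 3.57. Without it the genotype difference changed sign or moved by over 1.5 times in 25 of the 47 Wnt genes, none of which passed the test between genotypes. The share over all genes was not computed, so this count is no result about Wnt genes as a group. Some of the 25 differed little with all mice (Dkk2 by -0.015 and Wnt4 by 0.014), where a small shift meets this rule. Those of the 25 whose difference is printed below are given with and without cKO mouse 5.

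**Figure D1:**
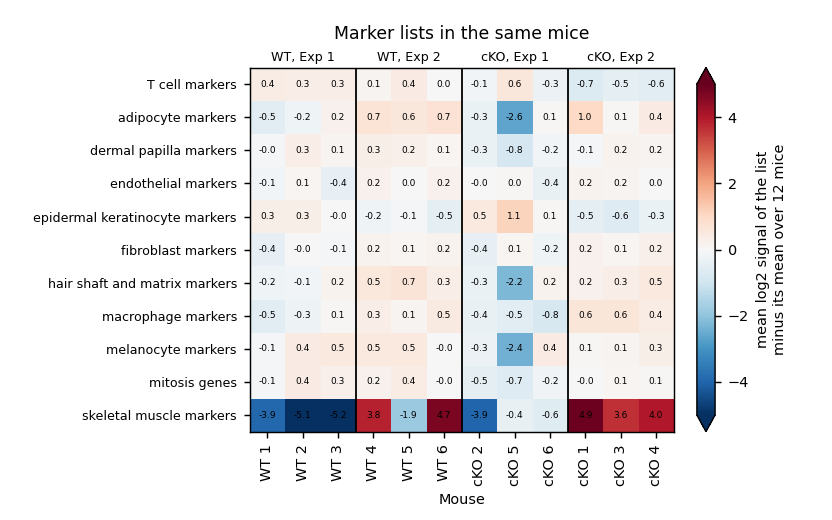
Mean log2 level of each list of cell type markers in each mouse, shown as the difference from the mean of the list over the 12 mice (colour and printed number), with mice in columns by genotype and experiment. Skeletal muscle genes are low in most mice of Exp 1 and high in Exp 2 except WT mouse 5, and cKO mouse 5 is low in hair shaft and matrix, melanocyte and adipocyte genes.

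Between the genotypes, 1 of the 47 Wnt genes passed the test, against 0.42% of all genes. That gene was Sp5, which fell in cKO skin. No ligand, receptor, TCF/LEF factor, secreted inhibitor or R-spondin passed. At an unadjusted p under 0.05 there were 10 Wnt genes (21.3%), against 12.2% of all genes. The median difference over the 47 genes was -0.11, beside -0.04 over all genes. Without cKO mouse 5 these medians were -0.05 and -0.04, and the median of the 47 was -0.19 without cKO mouse 6 and -0.07 without WT mouse 5. Within Exp 1, 0 of the 47 passed in limma (0.117% of all genes did), with 8 at an unadjusted p under 0.05 (1829 of all 16183 genes). Within Exp 2, 0 passed (0.0618% of all genes), with 2 at an unadjusted p under 0.05 (755 of all 16183 genes). The difference between the experiments in the genotype difference passed for 0 of the 47 (0.00618% of all genes). Sp5 and Wnt7b were at an unadjusted p under 0.05 for it, as were 511 of all 16183 genes. In bulk skin, fewer cells of a type and less RNA per cell cannot be told apart.

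**Figure D2:**
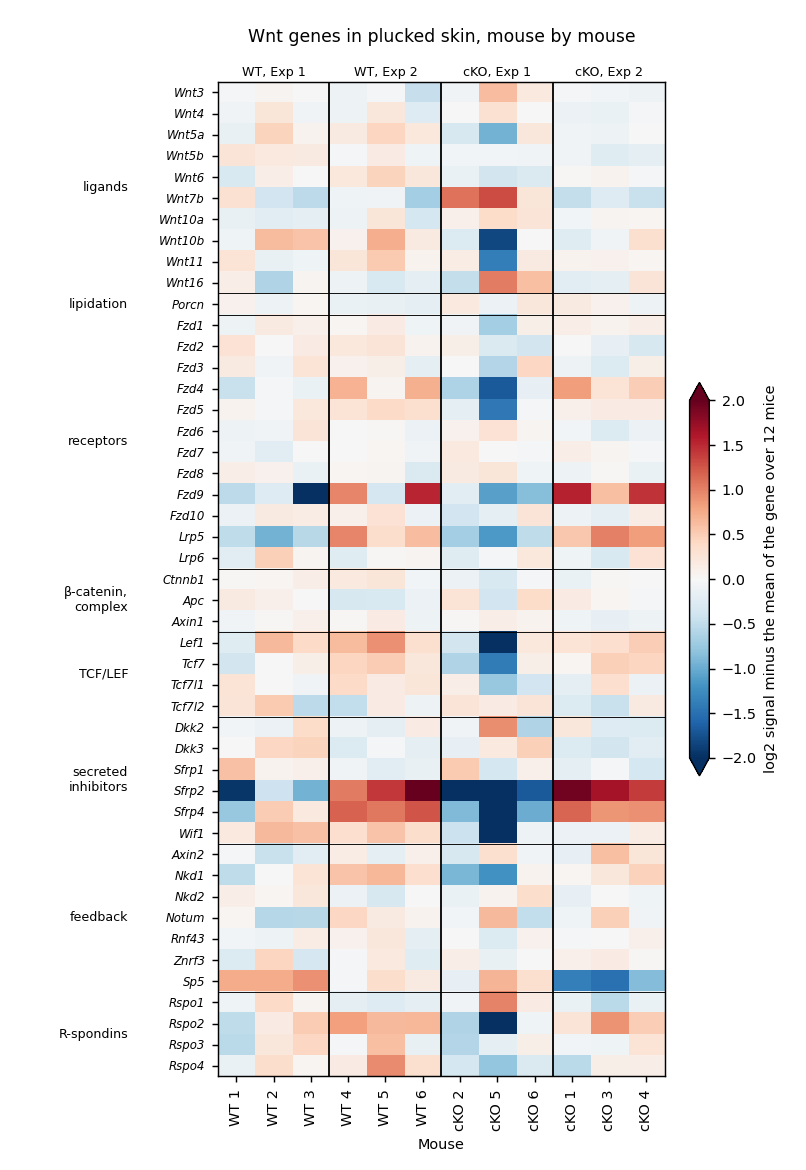
Level of each of the 47 measured Wnt genes (rows, grouped by role) in each of the 12 mice (columns), as the log2 signal minus the mean of the gene over the 12 mice, with colours ending at 2 in either direction. Sfrp2, Sfrp4 and Lrp5 are lower in every mouse of Exp 1 than in any mouse of Exp 2. Fzd9 is also lower in Exp 1, except that WT mouse 5 of Exp 2 lies inside the Exp 1 range. Sp5 is lowest in the 3 cKO mice of Exp 2. In Lef1, Sfrp4, Rspo2, Wif1, Wnt10b and other genes cKO mouse 5 is the lowest of the 12 mice.

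Feedback targets were the role that held the called gene. Sp5, a zinc-finger transcription factor and direct target of β-catenin, read -1.05, -1.05 and -0.87 in WT mice of Exp 1 and -1.80, -1.43 and -1.61 in WT mice of Exp 2. In cKO mice it read -1.95, -1.11 and -1.46 in Exp 1 and -3.15, -3.27 and -2.65 in Exp 2. Within each experiment every cKO mouse was below every WT mouse, although the cKO mice of Exp 1 overlapped the WT mice of Exp 2. Over both experiments the mean was -1.30 ± 0.37 for the 6 WT mice and -2.27 ± 0.90 for the 6 cKO mice (SD). The fitted difference, a 1.95-fold lower signal in cKO skin, was -0.96 (SE 0.16, adjusted p = 0.033 in limma). It was -0.52 in Exp 1 (SE 0.22, adjusted p = 0.431 in limma) and -1.41 in Exp 2 (SE 0.22, adjusted p = 0.076 in limma). The difference between these was 0.89 (SE 0.32), with an unadjusted p of 0.018 and an adjusted p of 1.00 in limma.

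The Sp5 call was close to the threshold and did not hold under every setting. With the slide of the array as a block the difference was -0.89 (adjusted p = 0.091 in limma), within slide 1 it was -1.23 (adjusted p = 0.115) and within slide 2 -0.50 (adjusted p = 0.166). It was lost when any 1 of the 6 WT mice or cKO mouse 1 or 3 was left out, with differences between -1.06 and -0.85 over the 12 omissions. Without cKO mouse 5 it was -1.06 (adjusted p = 0.014 in limma). Over all 26 alternatives the difference stayed below 0, from -1.23 to -0.48, with adjusted p between 0.014 and 0.397, and 9 of them kept the call.

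The other 6 feedback targets did not pass. Their genotype differences ran from -0.45 for Nkd1, which binds Dishevelled, to 0.21 for Axin2, the scaffold that is the usual readout of β-catenin activity. Axin2 read -0.42, -0.85 and -0.63 in WT and -0.72, -0.08 and -0.48 in cKO mice of Exp 1. In Exp 2 it read -0.26, -0.59 and -0.31 in WT and -0.56, 0.20 and -0.16 in cKO mice. The genotypes overlapped in both experiments (SE 0.16, adjusted p = 0.613 in limma), and the difference was 0.12 without cKO mouse 5. Notum, a secreted enzyme that removes the lipid of Wnt proteins, differed by 0.14 with all mice and by -0.012 without cKO mouse 5. Znrf3 differed by 0.08, Nkd2 by 0.015 and Rnf43 by -0.03 (0.02 without cKO mouse 5). Rnf43 and Znrf3 are ubiquitin ligases that remove Frizzled receptors from the cell surface. The median over the 7 feedback targets was 0.015, and from -0.05 to 0.05 with 1 mouse left out.

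To show the DNA before the start sites of genes described here, the 250 bases upstream of 4 start sites are printed from RefSeq (build GRCm38.p6, plus strand, 5′ to 3′). Sp5 is shown as the gene that passed, Lef1 and Axin2 as a pathway factor and its usual readout, and Sfrp2 as the gene with the largest difference between experiments. The choice was made after their values were seen. Capitals mark the motif CTTTGA or its variant with a final T, which is CTTTGT, on either strand. On the opposite strand the first is written TCAAAG and the variant is written ACAAAG. These are the letters of a TCF/LEF core that Sox proteins, which share the HMG-box fold, can also read, and each hit is counted once. Sp5 is at chr2:70474673-70474922, Lef1 at chr3:131156044-131156293 (1 of its 4 start sites in the table, shown because the other 3 held no match), Axin2 at chr11:108920099-108920348 and Sfrp2 at chr3:83766071-83766320.
Sp5: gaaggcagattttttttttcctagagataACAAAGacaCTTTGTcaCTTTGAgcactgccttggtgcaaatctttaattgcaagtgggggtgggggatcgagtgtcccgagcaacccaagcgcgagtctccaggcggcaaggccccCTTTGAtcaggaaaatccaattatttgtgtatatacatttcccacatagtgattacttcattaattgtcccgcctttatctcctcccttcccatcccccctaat
Lef1: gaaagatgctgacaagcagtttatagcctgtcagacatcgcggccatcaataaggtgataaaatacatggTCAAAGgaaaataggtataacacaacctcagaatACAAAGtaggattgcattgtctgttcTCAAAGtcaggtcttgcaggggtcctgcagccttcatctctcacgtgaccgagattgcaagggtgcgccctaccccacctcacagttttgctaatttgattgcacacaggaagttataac
Axin2: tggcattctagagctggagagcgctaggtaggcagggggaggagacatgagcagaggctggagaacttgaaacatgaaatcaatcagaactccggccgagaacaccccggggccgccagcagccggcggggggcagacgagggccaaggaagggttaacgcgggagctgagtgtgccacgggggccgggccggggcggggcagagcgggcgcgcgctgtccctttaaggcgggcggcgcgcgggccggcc
Sfrp2: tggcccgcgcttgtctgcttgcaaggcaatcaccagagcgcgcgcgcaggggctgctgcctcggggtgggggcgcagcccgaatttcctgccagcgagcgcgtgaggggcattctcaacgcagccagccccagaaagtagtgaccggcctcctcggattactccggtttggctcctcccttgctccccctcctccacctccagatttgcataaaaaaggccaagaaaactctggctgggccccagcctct

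The Sp5 sequence held 4 matches, which began 221, 212, 204 and 104 bases before the start site. The Lef1 sequence held 3, beginning 180, 146 and 120 bases before it, while Axin2 and Sfrp2 held none in this window. Among all 32851 promoters of the table, 27.6% held at least 1 match in the same 250 bases, 0.776% at least 3 and 0.094% at least 4. Of the 52 Wnt genes, 33 had an entry there (43 promoters in all) and 10 of these genes held a match. Counted by promoter, 23.3% of the 43 held at least 1 match, 6.98% at least 3 (Sp5, Lef1 and Dkk1) and 2.33% at least 4 (Sp5). These are matches of letters and not measured binding sites.

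Among the ligands, 0 of 10 measured genes passed in limma, with 5 at an unadjusted p under 0.05 (Wnt5b, Wnt6, Wnt7b, Wnt10a and Wnt10b). The smallest p was that of Wnt5b, a ligand best known for signalling that does not use β-catenin. It read 1.70, 1.63 and 1.62 in WT and 1.39, 1.39 and 1.37 in cKO mice of Exp 1, where all cKO mice were below all WT mice. In Exp 2 it read 1.41, 1.61 and 1.36 in WT and 1.37, 1.19 and 1.24 in cKO mice, which overlapped. The difference was -0.23 (SE 0.07, adjusted p = 0.260 in limma).

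Wnt10b, a ligand long tied to the growth phase of the follicle, read -1.36, -0.64 and -0.70 in WT and -1.54, -3.10 and -1.28 in cKO mice of Exp 1. In Exp 2 it read -1.18, -0.54 and -1.10 in WT and -1.51, -1.35 and -0.95 in cKO mice. The genotype difference in Exp 1 was -1.07 with all mice and -0.51 without cKO mouse 5, which had the lowest value of the 12. Wnt7b went the other way in Exp 1, at -1.36, -2.05 and -2.20 in WT and -0.58, -0.36 and -1.43 in cKO mice. That difference was 1.08 (SE 0.30, adjusted p = 0.255 in limma), and in Exp 2 it was -0.12. The other 7 measured ligands (Wnt3, Wnt4, Wnt5a, Wnt6, Wnt10a, Wnt11 and Wnt16) differed by between -0.39 for Wnt5a and 0.34 for Wnt16. Without cKO mouse 5 the differences of Wnt5a, Wnt16, Wnt10b, Wnt11 and Wnt3 were -0.24, 0.18, -0.42, -0.03 and 0.09, where they were -0.39, 0.34, -0.70, -0.29 and 0.18 with it, and that of Wnt4 was -0.04 instead of 0.014. Porcn, which attaches the lipid to Wnt proteins, differed by 0.15 (SE 0.09).

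The 12 receptors gave 0 calls in limma and 1 gene at an unadjusted p under 0.05. That was Fzd2, at 2.78, 2.50 and 2.67 in WT and 2.62, 2.21 and 2.13 in cKO mice of Exp 1. In Exp 2 it was at 2.70, 2.75 and 2.57 in WT and 2.51, 2.33 and 2.17 in cKO mice. The groups overlapped in Exp 1 through cKO mouse 2 and did not in Exp 2. The difference was -0.33 (SE 0.11, adjusted p = 0.269 in limma). The co-receptors Lrp5 and Lrp6 differed by 0.017 and -0.05. The 12 differences ran from -0.40 for Fzd5 to 0.48 for Fzd9, with a median of -0.08 (-0.02 without cKO mouse 5). Without that mouse Fzd5 differed by -0.18, Fzd4 by -0.07 instead of -0.28, Fzd3 by -0.007 instead of -0.14, Fzd1 by 0.014 instead of -0.10 and Lrp5 by 0.11.

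β-Catenin and the TCF/LEF factors gave no call. Ctnnb1, which encodes β-catenin, read 4.27, 4.29 and 4.38 in WT and 4.12, 3.94 and 4.21 in cKO mice of Exp 1, which did not overlap. In Exp 2 it read 4.45, 4.49 and 4.19 in WT and 4.11, 4.27 and 4.25 in cKO mice. The difference was -0.19 (SE 0.08, adjusted p = 0.390 in limma). Such a transcript level does not measure the β-catenin protein, whose stability the pathway controls.

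Tcf7l1 had the smallest p among the TCF/LEF factors. It is a factor of follicle stem cells that mainly represses. Its level was 0.07, -0.22 and -0.28 in WT and -0.07, -0.96 and -0.59 in cKO mice of Exp 1, and 0.18, -0.04 and 0.04 in WT and -0.39, 0.13 and -0.33 in cKO mice of Exp 2. The genotypes overlapped in both experiments (difference -0.32, SE 0.16, adjusted p = 0.446 in limma). Lef1, the factor of hair matrix and precortex, read 2.24, 3.13 and 2.87 in WT and 2.12, -1.10 and 2.69 in cKO mice of Exp 1. It read 3.11, 3.40 and 2.81 in WT and 2.76, 2.81 and 2.97 in cKO mice of Exp 2. Its genotype difference in Exp 1 was -1.50 with all mice and -0.33 without cKO mouse 5, the mouse whose hair shaft and matrix genes were lowest. The part of those cells in the result was not tested.

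Of the 6 measured secreted inhibitors, 0 passed between genotypes in limma. All 6 differences were below 0 with this scaling and with the median or quantile scaling, but 4 of them turned under other settings. Dkk2 was above 0 with slide or the array-name tag as a term, within slide 2, with the deposited table and without WT mouse 3 or 6 or cKO mouse 2, 3, 4 or 6 (-0.23 to 0.16 over the 12 omissions). Dkk3 was above 0 within slide 2 and with the deposited table, Sfrp1 within slide 1 and Sfrp2 with the deposited table. Their median difference was -0.25, beside -0.04 over all genes. It was -0.39 without WT mouse 1, -0.18 without WT mouse 2 and -0.04 with the deposited table, and 1 of the 6 had an unadjusted p under 0.05. That gene was Wif1, which binds Wnt ligands outside the cell. Wif1 read 2.59, 3.05 and 2.98 in WT and 1.96, 0.30 and 2.30 in cKO mice of Exp 1, and 2.73, 2.97 and 2.75 in WT and 2.28, 2.28 and 2.55 in cKO mice of Exp 2. All 6 cKO mice were below all 6 WT mice. It was the only 1 of the 47 genes whose genotypes did not overlap over all 12 mice (1.25% of all genes did not). The difference was -0.90 (SE 0.29, adjusted p = 0.269 in limma) with all mice and -0.59 (adjusted p = 0.073 in limma) without cKO mouse 5.

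Sfrp4, a Frizzled-related protein that binds Wnt ligands, read -2.07, -0.80 and -1.11 in WT and -2.20, -5.83 and -2.30 in cKO mice of Exp 1, and the value of cKO mouse 5 was not above background. In Exp 2 it read -0.13, -0.25 and -0.06 in WT and -0.14, -0.42 and -0.40 in cKO mice. The genotype difference in Exp 1 was -2.11 with all mice and -0.92 without cKO mouse 5 (adjusted p = 0.435 in limma). Sfrp1, Sfrp2, Dkk2 and Dkk3 differed by -0.11, -0.37, -0.015 and -0.13 over both experiments. When cKO mouse 5 was left out, Sfrp1 was at -2.9e-05 and Dkk2 at -0.23.

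R-spondins are secreted proteins that strengthen Wnt signals by keeping Rnf43 and Znrf3 off the Frizzled receptors, and 0 of 4 passed in limma, with 1 at an unadjusted p under 0.05. Rspo4 read -2.25, -1.76 and -2.08 in WT and -2.46, -2.88 and -2.41 in cKO mice of Exp 1, and -1.96, -1.16 and -1.79 in WT and -2.66, -2.0 and -1.98 in cKO mice of Exp 2. The genotypes did not overlap within either experiment. The difference was -0.56 (SE 0.18, adjusted p = 0.268 in limma). Rspo2 was -6.15 and not above background in cKO mouse 5, and between -3.47 and -1.97 in the other 11 mice. Its difference in Exp 1 was -1.37 with that mouse and -0.39 without it. Rspo1 and Rspo3 differed by 0.10 and -0.17, and Rspo1 by -0.06 without cKO mouse 5.

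Counted without a test, 7 of the 47 genes did not overlap between genotypes in Exp 1 (12.9% of all genes did not) and 9 did not in Exp 2 (12.6% of all genes). Wif1, Sp5 and Rspo4 were among both, each with the cKO mice lower. These were 14.9% and 19.1% of the 47.

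**Figure D3:**
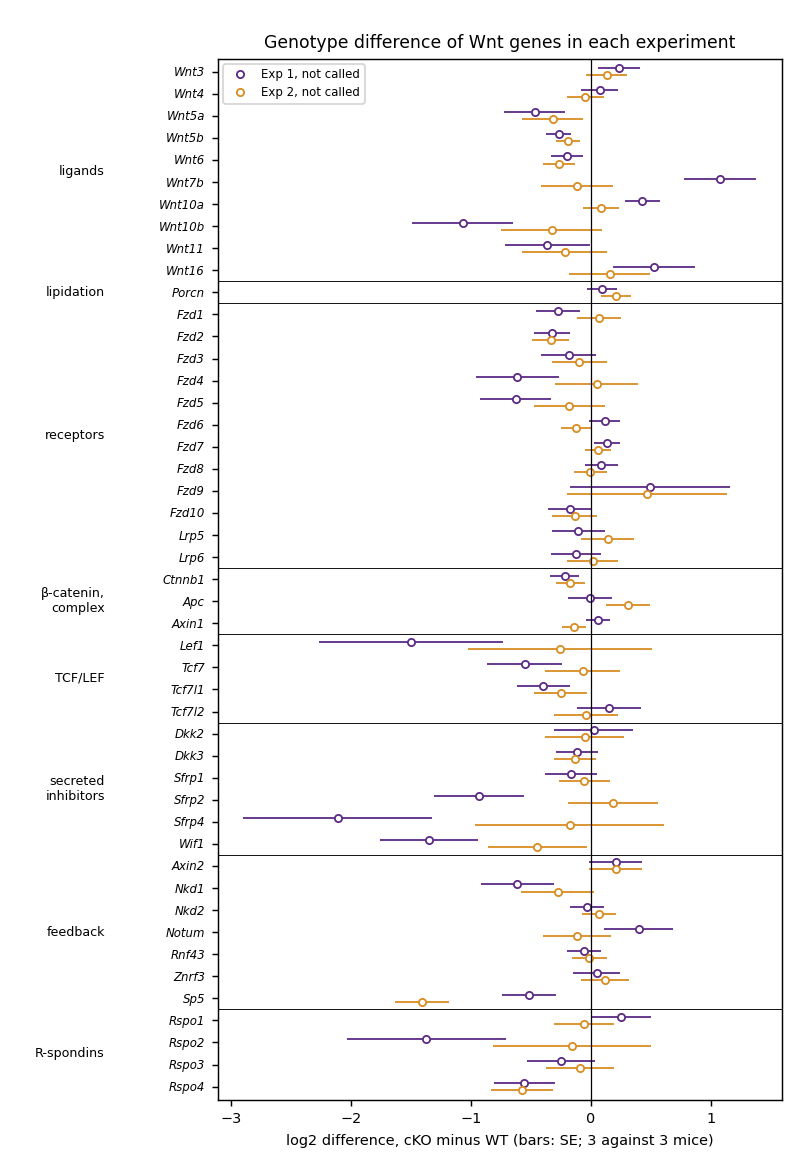
Difference between cKO and WT skin of each of the 47 Wnt genes (log2, cKO minus WT) in Exp 1 and in Exp 2, with bars of 1 SE from limma and 3 mice against 3. No gene passed the test within either experiment, the value of Sp5 in Exp 2 is -1.41, and the long bars of Lef1, Sfrp4 and Rspo2 belong to genes in which cKO mouse 5 was far below the other mice.

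Between the experiments, 11 of the 47 Wnt genes passed the test (23.4%), against 20.2% of all genes. As a share this is near the background, so the count is no result about Wnt genes as a group. An unadjusted p under 0.05 in limma was reached by 34.0% of the 47 and by 35.3% of all genes. Exp 1, the older mice, was higher in 3 of them (10.7% of all genes passed in that direction) and lower in 8 (9.47%). The 3 were Sp5, Wnt7b and Dkk3, and the 8 were Sfrp2, Sfrp4, Lrp5, Fzd4, Fzd9, Nkd1, Tcf7 and Wnt6. In WT mice alone, 2 of the 47 passed (0.84% of all genes), Sfrp2 and Lrp5. In cKO mice alone, 6 passed (9.98% of all genes), which were Sfrp2, Sfrp4, Lrp5, Fzd4, Sp5 and Wnt7b. The skeletal muscle, keratinocyte, hair shaft and matrix, and macrophage genes moved with the same contrast, as given above. The part of these lists in the result was not tested. With the mean level of the muscle genes as a covariate, 0 of the 47 and 0 of all 16183 genes passed in limma. The differences of the 11 genes kept their sign. That muscle level itself nearly followed experiment, with a mean of -2.24 in Exp 1 and 4.16 in Exp 2. The covariate therefore takes up much of this contrast for any gene, and the loss of calls cannot show what part muscle had.

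Sfrp2, a secreted Frizzled-related protein, had the largest difference of the 47. It read -2.50, -0.96 and -1.50 in WT and -2.58, -2.95 and -2.23 in cKO mice of Exp 1, and 0.49, 0.86 and 1.44 in WT and 1.37, 1.11 and 0.86 in cKO mice of Exp 2. All 6 mice of Exp 1 were below all 6 mice of Exp 2. The difference of -3.14 (SE 0.27, adjusted p = 0.001 in limma) was -2.58 in WT and -3.70 in cKO mice (adjusted p = 0.029 and 0.004). The call in WT mice was lost without WT mouse 1, 3 or 4 (-2.93 to -2.16 over the omissions). The averaged difference was -2.93 within slide 1 and -3.63 within slide 2. With the muscle mean as a covariate it was -3.15 (adjusted p = 0.144).

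Sfrp4 was lower in Exp 1 by the same comparison, at -2.15 (SE 0.56, adjusted p = 0.023 in limma), and its experiments did not overlap. Without cKO mouse 5 the difference was -1.55 (adjusted p = 0.003). The call was lost without WT mouse 1 or WT mouse 4. In cKO mice alone the difference was -3.12 with all mice and -1.93 without cKO mouse 5 (adjusted p = 0.038 and 0.022 in limma), and this call was lost without WT mouse 3, 4 or 6 or cKO mouse 1, 3 or 4 (-3.74 to -1.93). Dkk3, a divergent member of the Dkk family, moved the opposite way. It read 2.90, 3.30 and 3.33 in WT and 2.72, 3.09 and 3.36 in cKO mice of Exp 1, and 2.62, 2.86 and 2.71 in WT and 2.61, 2.52 and 2.66 in cKO mice of Exp 2. The experiments overlapped slightly through WT mouse 5 and cKO mouse 2, and the difference was 0.45 (SE 0.12, adjusted p = 0.028 in limma). The call was lost without WT mouse 2, 3, 4 or 6 or cKO mouse 1 or 3, with differences of 0.38 to 0.54 over the 12 omissions.

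Among the receptors, 3 of 12 passed and all 3 were lower in Exp 1. Lrp5, the co-receptor, read 1.86, 1.42 and 1.82 in WT and 1.69, 1.22 and 1.86 in cKO mice of Exp 1, and 3.35, 2.72 and 2.99 in WT and 2.91, 3.37 and 3.20 in cKO mice of Exp 2. Every mouse of Exp 1 was below every mouse of Exp 2. The difference was -1.45 (SE 0.16, adjusted p = 0.001 in limma), with -1.12 within slide 1 and -1.65 within slide 2. It was -1.24 with the muscle mean as a covariate (adjusted p = 0.161). In WT mice alone it was -1.32 (adjusted p = 0.039 in limma), a call lost without WT mouse 1, 2, 3, 4 or 6 or cKO mouse 4 (-1.47 to -1.16).

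Fzd4 and Fzd9 are Frizzled receptors. Fzd4 read 1.56, 1.98 and 1.87 in WT and 1.40, 0.33 and 1.85 in cKO mice of Exp 1, and 2.70, 2.07 and 2.72 in WT and 2.85, 2.29 and 2.51 in cKO mice of Exp 2, which did not overlap. Its difference was -1.02 (SE 0.25, adjusted p = 0.017 in limma) with all mice and -0.81 without cKO mouse 5. In cKO mice alone it was -1.36 (adjusted p = 0.039 in limma), and that call was kept without WT mouse 5 or cKO mouse 6 and lost without any of the other 10 mice (-1.69 to -0.92). Fzd9 read -3.88, -3.62 and -6.19 in WT and -3.56, -4.44 and -4.21 in cKO mice of Exp 1, and -2.37, -3.68 and -1.83 in WT and -1.81, -2.75 and -1.91 in cKO mice of Exp 2. The values of WT mouse 3 and cKO mouse 5 were not above background, and WT mouse 5 lay inside the Exp 1 range. The Fzd9 difference was -1.92 (SE 0.47, adjusted p = 0.019 in limma), and -0.76 with the muscle mean as a covariate (adjusted p = 0.709). The other 9 receptors ran from -0.47 for Fzd5 to 0.17 for Fzd6.

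**Figure D4:**
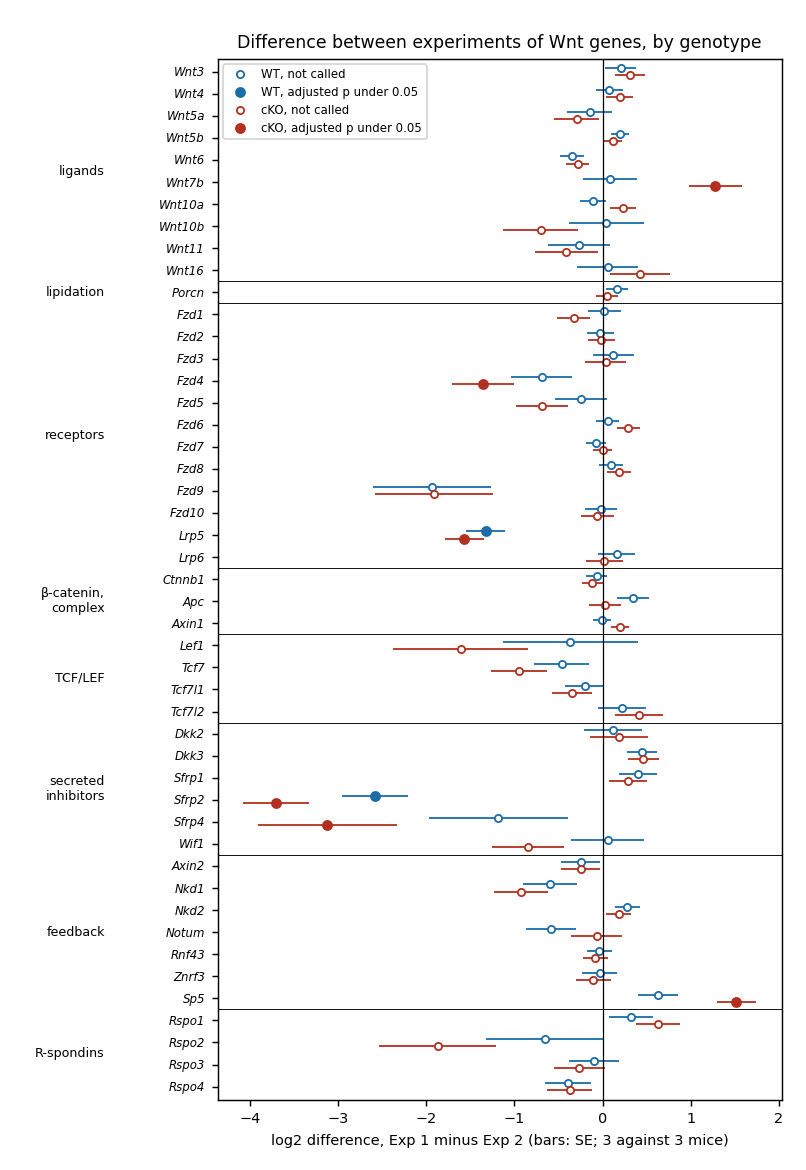
Difference between the experiments of each of the 47 Wnt genes (log2, Exp 1 minus Exp 2) in WT and in cKO mice, with bars of 1 SE from limma, 3 mice against 3 and filled points for genes that passed the test. Sfrp2 and Lrp5 are filled in both genotypes, and Sfrp4, Fzd4, Sp5 and Wnt7b in cKO mice.

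Of the ligands, 2 of 10 passed. Wnt7b, an epidermal and follicular ligand, was higher in Exp 1 (0.68, SE 0.21, adjusted p = 0.048 in limma). In cKO mice of Exp 1 it read -0.58, -0.36 and -1.43, against -2.15, -1.93 and -2.12 in cKO mice of Exp 2. WT mice read -1.36, -2.05 and -2.20 in Exp 1 and -1.76, -1.74 and -2.35 in Exp 2, which overlapped. Within cKO the difference was 1.28 (adjusted p = 0.032 in limma) and within WT 0.08. The difference between them was 1.19 (SE 0.43), with an unadjusted p of 0.019 and an adjusted p of 1.00. Without cKO mouse 5 the value in cKO mice was 1.06 (adjusted p = 0.083), and that call was also lost without cKO mouse 1, 2, 3 or 4 (1.06 to 1.60 over the 12 omissions). The averaged call was lost without any mouse but cKO mouse 6 (0.55 to 0.84). Epidermal keratinocyte genes had their highest mean levels in cKO mouse 5 (7.68) and cKO mouse 2 (7.05), against 5.93 to 6.86 in the other 10 mice, and their part in the result was not tested.

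Wnt6 was lower in Exp 1 by a small amount. It read -0.41, 0.03 and -0.10 in WT and -0.23, -0.47 and -0.38 in cKO mice of Exp 1, and 0.12, 0.34 and 0.12 in WT and -0.07, -0.02 and -0.13 in cKO mice of Exp 2. The ranges overlapped over all mice but not within either genotype. The difference was -0.32 (SE 0.09, adjusted p = 0.039 in limma), and the call was lost on leaving out any mouse other than WT mouse 2 and cKO mouse 2 (differences of -0.36 to -0.25).

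Sp5 and Nkd1 were the feedback targets that differed between the experiments, in opposite directions. Sp5, whose values are given above, was higher in Exp 1 by 1.07 (SE 0.16, adjusted p = 0.003 in limma), at 1.52 in cKO and 0.63 in WT mice (adjusted p = 0.011 and 0.172). Within slides the averaged difference was 0.96 on slide 1 and 1.1 on slide 2. Nkd1 read 1.51, 2.02 and 2.29 in WT and 1.09, 0.81 and 2.08 in cKO mice of Exp 1, and 2.58, 2.67 and 2.35 in WT and 2.05, 2.24 and 2.47 in cKO mice of Exp 2. The difference was -0.76 (SE 0.22, adjusted p = 0.033 in limma) with all mice and -0.63 without cKO mouse 5 (adjusted p = 0.056). It also missed the threshold without WT mouse 1, 2, 4 or 5 or cKO mouse 2, 3 or 4, and ranged from -0.95 to -0.63. Axin2 differed by -0.25 and did not pass (adjusted p = 0.286 in limma).

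Tcf7 was the 1 TCF/LEF factor that passed. It read 0.01, 0.38 and 0.50 in WT and -0.23, -1.02 and 0.48 in cKO mice of Exp 1, and 0.80, 0.88 and 0.61 in WT and 0.42, 0.86 and 0.80 in cKO mice of Exp 2. The experiments overlapped through cKO mouse 1. The difference was -0.71 (SE 0.22, adjusted p = 0.047 in limma) with all mice and -0.52 (adjusted p = 0.048) without cKO mouse 5. The Tcf7 call was kept without cKO mouse 5 or 6 and lost without any of the other 10 mice, with differences from -0.89 to -0.52. Lef1 differed by -0.99 with all mice (adjusted p = 0.223) and by -0.40 without that mouse. The 3 genes of β-catenin and the destruction complex gave 0 calls in limma and 0 at an unadjusted p under 0.05. Apc had the smallest p of these, at -1.92, -1.99 and -2.09 in WT and -1.82, -2.48 and -1.73 in cKO mice of Exp 1, and at -2.42, -2.41 and -2.21 in WT and -1.93, -2.05 and -2.12 in cKO mice of Exp 2 (difference 0.19, SE 0.13). It was 0.30 and passed when cKO mouse 5 was left out (adjusted p = 0.027 in limma).

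No R-spondin passed in limma, with 2 of the 4 at an unadjusted p under 0.05, which 35.3% of all genes reached. Rspo1 read 2.05, 2.52 and 2.20 in WT and 2.07, 3.14 and 2.31 in cKO mice of Exp 1, and 1.96, 1.88 and 1.94 in WT and 2.01, 1.60 and 2.01 in cKO mice of Exp 2. All mice of Exp 1 were above all mice of Exp 2, although the difference of 0.48 (SE 0.18, adjusted p = 0.081 in limma) missed the threshold. Rspo2 differed by -1.26 with all mice (adjusted p = 0.081) and passed without cKO mouse 5 at -0.77 (adjusted p = 0.025 in limma). Without that mouse Fzd5 (-0.24) and Sfrp1 also passed. Over all roles, 5 of the 47 genes (Fzd4, Lrp5, Sfrp2, Sfrp4 and Rspo1) did not overlap between the experiments, against 10.3% of all genes. Within WT mice 18 of the 47 did not overlap (28% of all genes), and within cKO mice also 18 (31.2% of all genes).

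**Figure D5:**
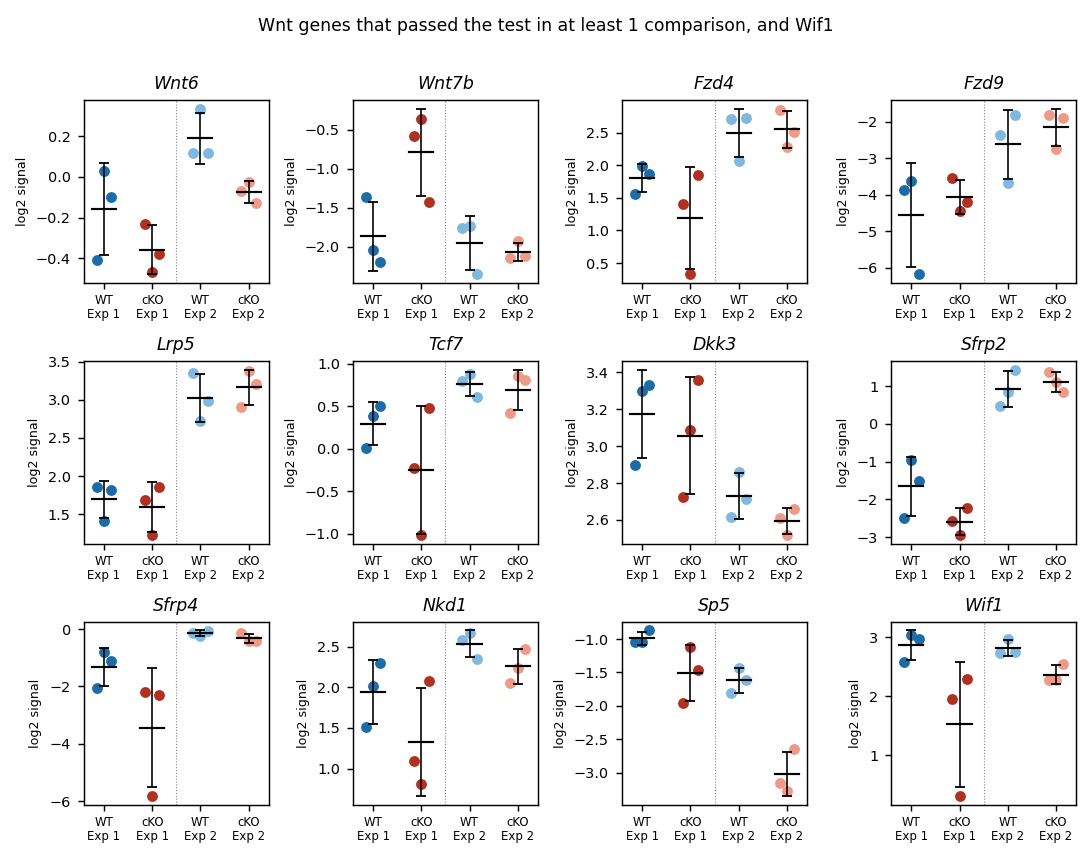
Level (log2 signal minus the array's 75th percentile) of the 11 Wnt genes that passed the test in at least 1 comparison, and of Wif1, in each mouse by genotype and experiment, with the mean and 1 SD of 3 mice as lines. Sfrp2 and Lrp5 separate the experiments in both genotypes, Sp5 is lowest in cKO mice of Exp 2, and all 6 cKO mice lie below the 6 WT mice in Wif1.

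A further 56 genes of the pathway, listed by name (other ligands, receptors and inhibitors, Dishevelled proteins, kinases, co-factors, planar polarity genes and target genes), gave 51 measured genes. Between genotypes 0 of 51 passed in limma, with 6 at an unadjusted p under 0.05 (12.2% of all genes). The median difference of the 51 was -0.04. The smallest p belonged to Ror2 (-0.64), Ascl2 (0.30), Ccnd1 (-0.38) and Frzb (-0.57), with adjusted p between 0.282 and 0.361 in limma. Between experiments 6 of 51 passed (11.8%, beside the 20.2% of all genes). Gpc3, a membrane proteoglycan, was lower in Exp 1 (-0.85, adjusted p = 0.003 in limma), as were Dvl3, a Dishevelled protein (-0.59), and Ascl2 (-0.38). Btrc, which marks β-catenin for degradation (0.31), the co-factor Bcl9l (0.23) and the planar polarity gene Vangl1 (0.25) were higher, with adjusted p from 0.039 to 0.050 in limma. These 3 calls were kept in 8, 6 and 4 of 26 alternatives. The call of Btrc was lost when any mouse other than WT mouse 6 or cKO mouse 1 or 5 was left out, Bcl9l with any but cKO mouse 5 and Vangl1 with any but cKO mouse 6. Within cKO mice Gpc3 (-0.99) and the inhibitor Sfrp5 (-1.05) passed, the latter in 7 of 26 alternatives and, of the omissions of 1 mouse, only in those of WT mouse 5 or 6, and within WT mice none did.

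Where a Wnt gene had further kept probes (12 genes, 13 probes), the direction of the used probe was shared by 9 of the 13 in the genotype comparison and by 9 in the comparison of experiments. The exceptions were probes of Fzd7, Lrp6, Apc and Nkd2 between genotypes, and of Fzd2, Lrp6, Nkd1 and Nkd2 between experiments. Nkd1 is the 1 gene among these that passed a test.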

How the data were processed

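Each of the 12 scanner files holds 1 one-colour Agilent array of 1 mouse. The processed signal is a background-subtracted intensity that was not scaled between arrays, and spot and local background medians are raw intensity values, per the file headers (Feature Extraction 11.5.1.1). The 0 or 1 flags for spots above background, saturated or outlying are those of the software, per the file headers. The authors' deposited value table is on a log2 scale, and the submitters' processing notes name limma. How it was normalized is not given in the sources, and its column for cKO mouse 1 followed the array of that mouse less closely (r = 0.412 across genes, which are not independent replicates) than the other columns did (0.840 to 0.924), so it served only as an alternative. Its scale was log2, and its centring is unknown.

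Control spots and flagged outliers were left out, spots of a probe were averaged on the log2 scale, and every array had its 75th percentile subtracted. That percentile lay between 364 and 554 intensity units, with 53.9% to 62.6% of probes well above background. Both lowest values were those of cKO mouse 5. Probes were named through RefSeq transcripts (27509 of 55681 had a symbol). The number of arrays limits the precision. limma 3.58.1 in R 4.3.3 fitted 4 group means over all 12 arrays, with 7 contrasts, two-sided tests and Benjamini-Hochberg adjustment over 16183 genes. Per the labels each array is 1 mouse. On simulated data, with 200 genes moved by 1 log2 unit among 16158, the genotype contrast recovered 73.0% of them and the experiment contrast 78.5%. The simulated noise was independent between genes and arrays, with no slide effect and no array that stood apart. Differences under 1 log2 unit were not simulated. The members and lists were chosen with earlier results of these data known. Genes with values per mouse are all those that passed in a contrast and, per role, the smallest p between genotypes and between experiments. Others shown per mouse (Axin2, Lef1, Wnt10b), the promoters, their window and motif, and the value table without cKO mouse 1 were chosen after values were seen. Alternatives were other scaling, filters and probe rules, the deposited table, slide, mouse number and array-name tag as terms, muscle level as a covariate, and each mouse left out.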

Additional observations from a re-analysis of the deposited data

Results flagged for a closer look

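In 22 of 188 groups of 6 mice (each of the 47 genes by genotype and by experiment), the highest or lowest mouse stood apart from the other 5 by Dixon's test at the 95% level. That is 11.7% of the groups, and a gene can be counted both by genotype and by experiment. The 95% level would flag about 1 in 20 groups of like mice, but each group here joins both experiments or both genotypes. The share over all genes was not computed, so the 11.7% is no result about Wnt genes.

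Mouse cKO 5 accounted for 10 of the genes. Among cKO mice, Exp 1 mice or both it was lowest in Wnt10b (-3.10), Wnt11 (-0.074), Fzd1 (3.05), Fzd4 (0.33), Fzd5 (-2.45), Lef1 (-1.10), Sfrp4 (-5.83), Wif1 (0.30) and Rspo2 (-6.15), and highest in Wnt4 (4.01). The same mouse had the lowest mean levels of hair shaft and matrix, melanocyte, adipocyte and dermal papilla genes (2.95, 0.68, 0.12 and -0.94), and the part of those cells in these values was not tested.

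Mouse WT 3 was highest in Fzd6 among WT mice (1.84) and lowest in Fzd9 (-6.19, not above background) and Tcf7l2 (-1.14) among mice of Exp 1. WT mouse 6 was lowest in Wnt3 (0.29), and cKO mouse 3 was lowest in Rspo1 among mice of Exp 2 (1.60).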

How the results depend on the processing

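Over 26 alternatives the genes that passed a test kept their direction in the comparisons in which they passed, and Sox4 stayed lower in cKO skin. Of all 47 genes, 24 changed direction between genotypes and 16 between experiments under at least 1 alternative (12 and 7 on leaving out a mouse). Sfrp2 kept its call between experiments in 25 of the 26, Lrp5, Fzd4 and Fzd9 in 23, Sp5 in 22 and Sfrp4 in 21, but Dkk3 in 14, Nkd1 in 13, Tcf7 in 9, Wnt6 and Wnt7b in 8. The call of Sp5 between genotypes was kept in 9.

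Between genotypes the count of Wnt genes was 0 without the filter on dim probes, where 0.215% of all genes passed. It was 0 with the deposited table (0.0989% of all genes, or 0.222% without its column of cKO mouse 1). It was also 0 with the slide as a blocking term (0.34%), with the array-name tag (0.192%) and with the muscle covariate (0.068%). Within slide 1 and within slide 2 (5 arrays, 1 residual degree of freedom) some groups held 1 mouse, so counts for them are not given. Slide 2 holds cKO mouse 5 as its only cKO mouse of Exp 1. Between experiments the count was 5 with the deposited table and 11 without its column of cKO mouse 1 (2 in WT and 4 in cKO mice), 1 within slide 1, 18 within slide 2 and 0 with the muscle covariate. Over all genes, 10.05% passed between experiments with the deposited table and 21.03% without its column of cKO mouse 1. Without that column the shares were 1.54% in WT and 6.53% in cKO mice. In WT mice the count of Wnt genes was 1 without the filter (0.211% of all genes) or with slide as a block (0.13%). It was 0 there with the deposited table (0.0247%), with the tag (0.0433%) or with the muscle covariate (0 of all genes). In cKO mice it was 1 with the deposited table (0.383% of all genes) or with the tag (0.568%). It was 3 there with the slide term (0.902%) and 0 with the muscle covariate (0 of all genes). Leaving out each mouse gave 0 to 1 genes between genotypes, 0 to 0 in Exp 1, 0 to 1 in Exp 2 (Sp5, without cKO mouse 2 or 5), 5 to 12 between experiments (lowest without WT mouse 4, highest without cKO mouse 5), 0 to 3 in WT and 3 to 9 in cKO mice (highest without cKO mouse 6). Over all genes, 12.3% passed between experiments without WT mouse 4 and 20.1% without cKO mouse 5. Over the 12 omissions the share of all genes ran from 0.037% to 3.69% in WT mice. In cKO mice it ran from 0.97% to 14.4%, highest without cKO mouse 6. The changes in the counts are therefore no result about Wnt genes as a group, and their causes were not tested.

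Mouse numbers do not pair the mice: deviations of same-numbered mice correlated at -0.26 to 0.07 across genes, and 0 of 6 WT mice correlated best with their own number. With mouse number as a replicate block, 0 Wnt genes passed between genotypes (0.0247% of all genes), with Sp5 at -0.96 (adjusted p = 0.159 in limma). Between experiments 1 passed (Sfrp2, -3.49), against 0.0742% of all genes. In WT and in cKO mice 0 passed, as over all genes.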
